A study of Mus musculus with 2 samples.

Results

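Malat1, Neat1, Firre, Airn and Kcnq1ot1 are long non-coding RNAs (lncRNAs) that act in the nucleus, some of them in nuclear bodies or at imprinted loci. They were taken by gene name, with no threshold on measured values, and make up 5 of the 10944 gene names in the table of annotated lncRNA transcripts. The table held 24 annotated transcripts of these genes, of 15172 in all, and a second table held 11 assembled transcripts given the same gene names, of 16840 in all. RNA came from spleen cells of mice with collagen-induced arthritis (CIA), in which immunization with type II collagen leads to inflamed joints, and from untreated healthy mice. Both groups carry day 40 in their titles, while the CIA mice were killed at day 42 after the first immunization according to their treatment label. There was 1 library in each group, so none of the differences below has a replicate check and they compare 2 libraries, not 2 conditions. The labels used here give no strain, sex, age or number of mice per library.

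Malat1 is retained in nuclear speckles, domains rich in splicing factors. Neat1 is the scaffold of paraspeckles, nuclear bodies that are built on its long isoform and that hold back RNAs and RNA-binding proteins, and both genes respond to stress and immune signals in many cells. Firre is an X-linked lncRNA with many copies of a local repeat that binds the nuclear matrix protein hnRNPU, and it is expressed in lymphoid cells. Airn and Kcnq1ot1 are transcribed from the paternal chromosome, antisense to Igf2r, the receptor that clears insulin-like growth factor 2, and to Kcnq1, a potassium channel gene, and they silence neighbouring genes on the chromosome that makes them.

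The sequences that set these RNAs apart are shown first, because the isoforms measured below differ in whether they hold them. The 3′ parts of Malat1 and of the long Neat1 isoform carry a pair of U-rich motifs and an A-rich tract, which are known to fold into a triple helix that protects the end of the RNA. The stretches, written as DNA, lie at chr19:5795977-5796075 for Malat1-201 and chr19:5824708-5824807 for Neat1-201, both on the minus strand of GRCm38. The capitals mark TTTCTTTTC, TTTTGCTTT and AAAAGCAAA, in that order.
Malat1-201: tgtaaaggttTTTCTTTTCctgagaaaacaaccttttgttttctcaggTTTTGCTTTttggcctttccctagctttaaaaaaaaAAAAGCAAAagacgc
Neat1-201: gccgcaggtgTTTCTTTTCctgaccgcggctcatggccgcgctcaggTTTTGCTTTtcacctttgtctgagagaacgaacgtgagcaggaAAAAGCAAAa
These letters were read from the pair of transcripts themselves, on the transcribed strand only. Of the 15172 annotated transcripts, these 2 alone held the 3 motifs in this order within 150 bases, which is 0.0132%. The Neat1 stretch is the very end of the annotated transcript, whereas the annotated end of Malat1-201 lies 287 bases further on.

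Firre is shown by its repeat and by its first splice junction. Exon 4 of Firre-206, 155 bases at chrX:50615361-50615515 on the minus strand, is a copy of the repeat.
Firre-206 exon 4: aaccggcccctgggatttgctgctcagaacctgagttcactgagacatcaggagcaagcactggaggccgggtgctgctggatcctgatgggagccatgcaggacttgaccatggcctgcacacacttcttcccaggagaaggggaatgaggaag
The isoform Firre-206 held 10 copies of this exon at 85% identity or more over at least 80% of its length, Firre-208 held 5, and Firre-201 and Firre-209 held 2 each. By this rule, the other 6 Firre isoforms and all isoforms of the other members held none. Firre-202 and Firre-203 end inside exon 4 itself, at 50615449 and 50615395, and so hold part of the repeat. Firre-210 begins at 50564883, inside an exon that Firre-208 enters at 50564967 with the same 15 bases as exon 4. The junction of the first and second exons, from X position 50634945 to 50630995, is shared by Firre-201, Firre-202, Firre-203, Firre-204 and Firre-206. In the next line the first exon is in lower case and the second in capitals.
Firre first junction: cacggctcttgtaagGTATGCTTCACCTCT

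The Airn isoforms with values above 0 that start at the promoter leave from a common first exon on chromosome 17 that ends at 12741424 and join different second exons, 37.9 kb, 56.9 kb and 117.7 kb downstream. The second exon is again in capitals.
Airn-203: tcctggggaactgagGACATTTCTTGAAGA
Airn-202: tcctggggaactgagAGCCTGCAACAAGGA
Airn-204: tcctggggaactgagCCTGCTCCAGGTTCC

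**Figure D1:**
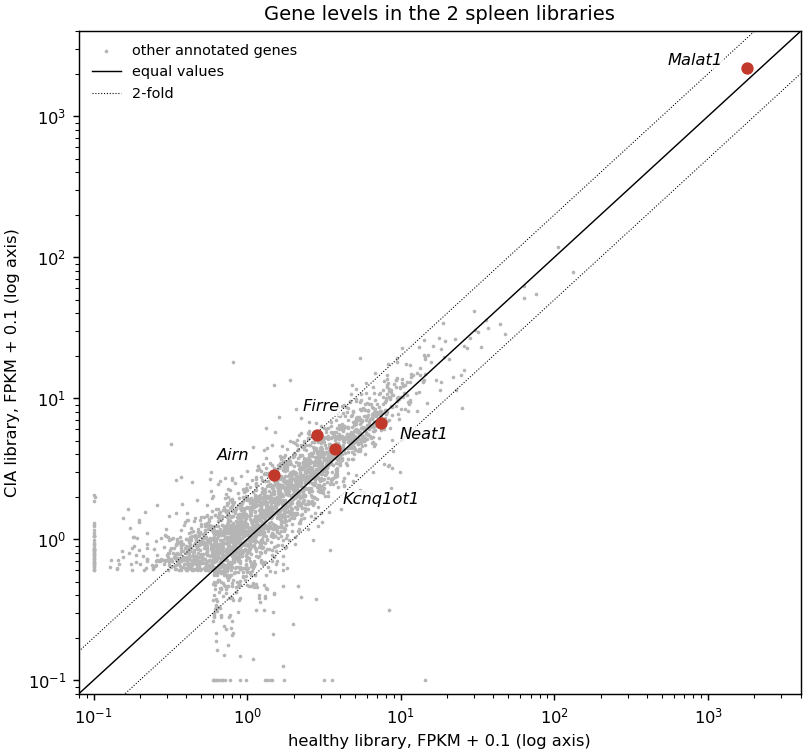
Gene levels, as FPKM summed over annotated transcripts plus 0.1, in the healthy library (x axis, log scale) and the CIA library (y axis, log scale). Grey points are the other annotated genes with at least 0.5 FPKM in either library, red points are the 5 named lncRNAs, the solid line marks equal values and the dotted lines 2-fold. Malat1 stands alone at the top at 2185 and 1798 FPKM, and Firre and Airn lie close to the upper 2-fold line.

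Levels are given as FPKM, fragments per kilobase of transcript and 1000000 fragments, summed over the annotated isoforms of a gene. In the CIA library the order was Malat1 at 2185 FPKM, Neat1 at 6.57, Firre at 5.39, Kcnq1ot1 at 4.23 and Airn at 2.77 FPKM. In the healthy library it was Malat1 at 1798 FPKM, Neat1 at 7.34, Kcnq1ot1 at 3.63, Firre at 2.74 and Airn at 1.40 FPKM, so Firre and Kcnq1ot1 exchanged places. With 1 library per group no spread can be put on this order. Of the 5, Neat1 alone was lower in the CIA library, and the other 4 genes were higher there. The log2 ratios of CIA over healthy, computed with 0.1 FPKM added to both values, were 0.95 for Firre, 0.93 for Airn, 0.28 for Malat1, 0.21 for Kcnq1ot1 and -0.16 for Neat1.

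None of the 5 genes was 2-fold apart in FPKM, in either direction. Of all 2765 annotated genes that reached 0.5 FPKM in one library or both, 14.0% had a CIA level 2-fold above the healthy one or more, and 4.20% lay 2-fold below it or more. The median log2 ratio of the 5 was 0.28, and that of all these genes was 0.30, a ratio of 1.23. Firre and Airn stood at percentiles 84.4 and 83.9 of the log2 ratios of all these genes, Malat1 at 48.9, Kcnq1ot1 at 44.1 and Neat1 at 21.7. Relative to the common shift of 0.30 in the annotated transcripts, Malat1 was at -0.02, Kcnq1ot1 at -0.08, Neat1 at -0.46, Airn at 0.64 and Firre at 0.66. In bulk spleen RNA, a change in the number of cells of a type and a change in RNA per cell cannot be told apart.

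Measured as fragments instead of as levels per length, the order differs. FPKM multiplied by transcript length gave 15250.2 fragments per 1000000 for Malat1 in the CIA library and 12555 in the healthy library. This was 47.6% and 46.6% of the fragments of all annotated lncRNA transcripts. Kcnq1ot1, an unspliced RNA of 93.1 kb, came second among all genes with 393.4 and 337.8 fragments per 1000000, or 1.23% and 1.25%. Neat1 was seventh by this measure, with 126.6 and 143.0. Firre had 12.0 and 7.51 fragments per 1000000, a ratio of 1.61, and Airn 1.77 and 0.857, a ratio of 2.07 in fragments. Together the 5 genes took 49.3% of the annotated lncRNA fragments in the CIA library and 48.4% in the healthy library.

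Of the 24 annotated isoforms, 14 were higher and 3 lower in the CIA library, and 7 were listed at 0 in both. Only 11 reached 0.5 FPKM in either library, 7 of them in both and 4 in the CIA library alone. Among the 11, 5 were at least 2-fold higher (Airn-202, Firre-202, Firre-203, Firre-206 and Malat1-204) and none was 2-fold lower, beside 15.7% and 6.13% of all 3068 annotated transcripts past the same filter. As 4 of the 5 reached 0.5 FPKM in the CIA library only, they had to differ to be counted, and nothing is read from this count. The assembled transcripts of the same names, all 11 past the filter, were at least 2-fold higher in 2 and lower in 4 cases, beside 17.2% and 11.1% of 16773 assembled transcripts.

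Malat1 lies at chr19:5795690-5802672 on the minus strand, in a single exon of 6983 bases. That full-length isoform, Malat1-201, reached 2184 FPKM in the CIA library against 1798 in the healthy one and made up 99.9% and 100% of the gene sum. The ratio was 1.21, close to the median of all annotated genes. Malat1-202 and Malat1-203, both spliced, were listed at 0 in both libraries.

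A spliced isoform of the 3′ part, Malat1-204, reached 1.51 FPKM in the CIA library and was listed at 0 in the healthy library. Its intron of 603 bases, chr19:5795786-5796388, begins with GT and ends with AG in the Malat1-201 sequence. The stretch with the U-rich motifs and the A-rich tract shown above lies inside this intron, so that this isoform lacks it. At 0.0692% of the Malat1 sum, the isoform is minor. The junction of its exons is printed with the second exon in capitals.
Malat1-204: catatcggtttcaagGTTATGCCCAATTCG

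On the strand opposite to Malat1, the 2 libraries differed in the levels of the assembled transcripts. The table of assembled transcripts named 3 of them after Malat1. MSTRG.19021.2, of 469 bases over the 3′ part, reached 10.6 FPKM in the CIA library against 0.287 in the healthy one. MSTRG.19021.1, of 309 bases in 3 exons, went the other way, at 1.18 and 4.09 FPKM. MSTRG.19024.1, of 245 bases, stood at 0.0175 and 2.82 FPKM. Their sum was 11.8 FPKM against 7.20 FPKM, a ratio of 1.64, and weighted by length it was 5.33 against 2.09 fragments per 1000000, a ratio of 2.55. The highest of the 3 was a different transcript in each library.

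Gm37376, a gene annotated on the opposite strand over the first part of Malat1 (chr19:5801941-5802393), itself stood at 0.0627 and 0.0175 FPKM. A pair of assembled transcripts of this name reached further, to 5790109 and 5780624 beyond the 3′ end of Malat1. MSTRG.19022.2 reached 9.25 FPKM in the CIA library against 0.00759 in the healthy one, and MSTRG.19022.1 had 7.40 FPKM and 0. All 6 opposite-strand transcripts over Malat1 summed to 28.5 FPKM in the CIA library against 7.22 in the healthy one. This is a ratio of 3.95 in FPKM, and of 10.1 in fragments, with 21.3 against 2.10 per 1000000. Against Malat1 itself the sum was 1.30% and 0.402% of its FPKM. The strand setting of the libraries is not given in the sources used here, and without strand, reads of Malat1 and of its antisense partners cannot be told apart. How much of the opposite-strand signal comes from Malat1 reads was not tested.

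**Figure D2:**
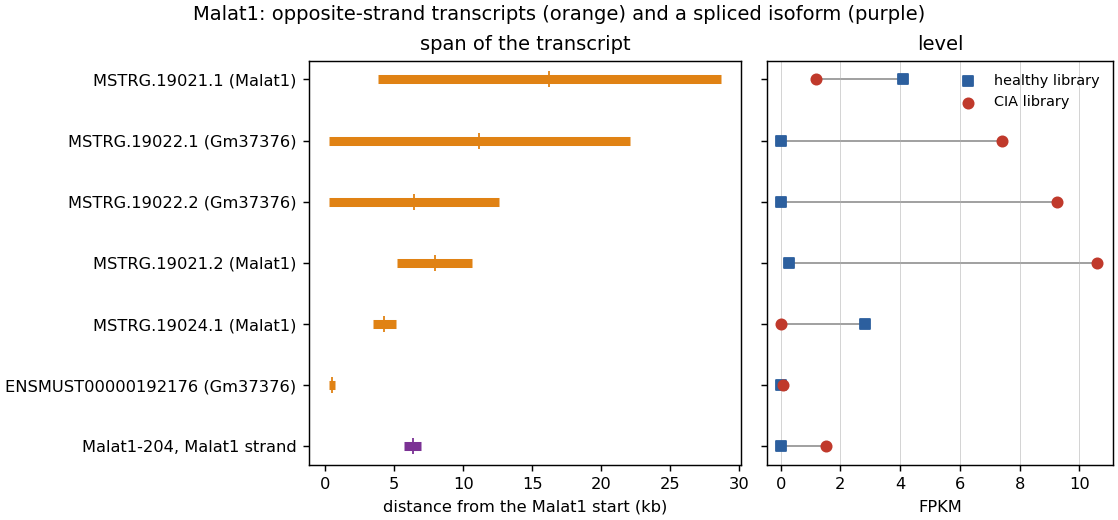
Transcripts on the strand opposite to Malat1 (orange) and the spliced isoform Malat1-204 (purple). The left panel gives the span of each in kb from the Malat1 start, with a tick at its middle, and the right panel its FPKM in the healthy library (blue squares) and the CIA library (red circles). MSTRG.19021.2 and the assembled Gm37376 transcripts are between 7.40 and 10.6 FPKM in the CIA library and below 0.3 FPKM in the healthy library, and MSTRG.19021.1 and MSTRG.19024.1 are higher in the healthy library.

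Neat1 lies 22035 bases from Malat1 on the same strand, at chr19:5824708-5845478, and was the member that was lower in the CIA library. The long isoform Neat1-201, of 20771 bases, on which paraspeckles are built, stood at 6.04 FPKM with CIA and 6.82 FPKM in health, a ratio of 0.885. It held 91.9% and 92.8% of the gene sum. Neat1-202, of 3004 bases in the first part of the locus, stood at 0.354 and 0.411 FPKM, a ratio of 0.860, and Neat1-203 at 0.180 and 0.114 FPKM. The spliced isoforms summed to 0.533 and 0.525 FPKM. The bases of Neat1-202 and Neat1-203 fall within those of the long isoform, and their levels depend on how the assembler split shared reads. No assembled transcript bore the name Neat1. The gene ratio was 0.895, against 1.22 for the neighbouring Malat1 in the same pair of libraries.

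Firre, at chrX:50555744-50635321 on the minus strand, stood at 5.39 FPKM with CIA and 2.74 FPKM in health, a ratio of 1.97. Without the isoforms listed at 0 in the healthy library the ratio was 1.61. Of the 10 annotated Firre isoforms, 6 were higher in the CIA library, 1 was lower and 3 were listed at 0 in both. The isoforms that use the first junction shown above made up the difference. Firre-202 stood at 1.37 FPKM with CIA and 0.595 FPKM in health. Firre-206, the isoform with 10 repeat copies, stood at 1.14 and 0.321 FPKM. Firre-203, which starts furthest upstream, stood at 0.932 FPKM and 0. Firre-204 stood at 0.312 and 0.0294 FPKM, and Firre-201 was listed at 0 in both.

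These 5 isoforms summed to 3.76 FPKM with CIA and 0.946 FPKM in health, a ratio of 3.98. The 5 without the junction, which start 43.4 kb or more downstream, summed to 1.63 and 1.79 FPKM, a ratio of 0.910. Among these Firre-208, with 5 repeat copies, stood at 0.812 FPKM with CIA and 1.25 FPKM in health and was the only isoform that was lower in the CIA library. Firre-210, at the 3′ end of the gene, stood at 0.768 and 0.547 FPKM, and Firre-205 at 0.0503 FPKM and 0. The leading isoform thus differed between the libraries, Firre-202 with 25.5% of the sum in the CIA library and Firre-208 with 45.5% in the healthy library. This grouping was made after the values were seen and is a description, and reads of exons shared by Firre-206 and Firre-208 could be assigned to either. The same holds for exons shared by Firre-202, Firre-203 and Firre-204.

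Grouped instead by the repeat, the 4 isoforms with copies by the rule above summed to 1.95 FPKM with CIA and 1.57 FPKM in health. The 6 without a copy by that rule summed to 3.44 and 1.17 FPKM. The share of Firre FPKM in the 4 isoforms was lower in the CIA library, while their summed level was 1.25 times that of the healthy library. The other 6 include Firre-202 and Firre-203, which hold part of exon 4, and Firre-210, which begins inside an exon that opens alike. This share is therefore not the share of Firre RNA with repeat sequence. In the authors' deposited table, Firre-206 had a p of 0.0136 and a q of 0.224.

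**Figure D3:**
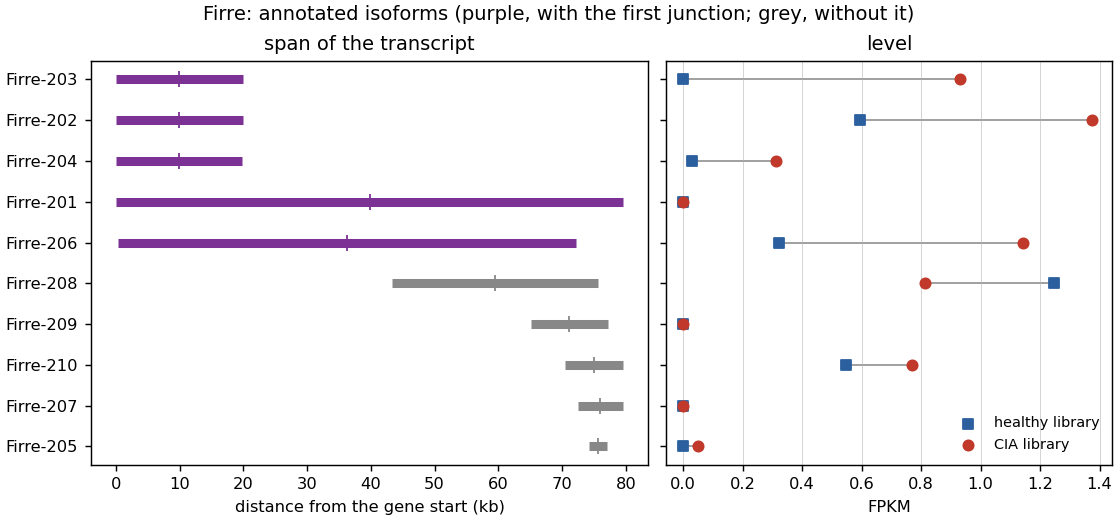
The 10 annotated Firre isoforms. The left panel gives their spans in kb from the gene start, with a tick at the middle, in purple for isoforms with the first junction and grey for the others, and the right panel gives FPKM in the healthy (blue squares) and the CIA library (red circles). All 4 purple isoforms above 0 are higher in the CIA library, and Firre-208 is lower.

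The RefSeq promoter windows of Firre, Airn and Kcnq1ot1, from 250 bases before to 50 bases after the start on GRCm38.p6, are shown because Firre and Airn are the genes with the highest ratios and Kcnq1ot1 is the imprinted antisense RNA that stayed near the common ratio. They were searched on both strands for 5 short promoter motifs, which are in capitals. The TATA box was searched as TATAAA. The box bound by NF-Y was searched as CCAAT. The GC box was searched as GGGCGG. For the E-box of helix-loop-helix factors the letters were CACGTG. A part of the cAMP response element was searched as TGACGT. No match overlapped another. The windows are chrX:50635272-50635571 (minus strand), chr17:12741061-12741360 (plus strand) and chr7:143296498-143296797 (minus strand).
Firre: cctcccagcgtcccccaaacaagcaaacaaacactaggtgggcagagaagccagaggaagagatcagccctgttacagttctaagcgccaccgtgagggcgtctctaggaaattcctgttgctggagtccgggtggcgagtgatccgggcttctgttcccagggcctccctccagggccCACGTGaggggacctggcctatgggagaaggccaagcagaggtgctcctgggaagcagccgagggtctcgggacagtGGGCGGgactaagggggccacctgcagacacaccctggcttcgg
Airn: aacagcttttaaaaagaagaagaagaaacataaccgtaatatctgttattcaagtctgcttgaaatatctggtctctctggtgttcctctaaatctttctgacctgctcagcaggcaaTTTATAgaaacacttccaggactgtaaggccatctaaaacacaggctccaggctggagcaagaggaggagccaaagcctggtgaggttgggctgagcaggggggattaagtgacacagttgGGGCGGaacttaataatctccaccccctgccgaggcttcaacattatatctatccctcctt
Kcnq1ot1: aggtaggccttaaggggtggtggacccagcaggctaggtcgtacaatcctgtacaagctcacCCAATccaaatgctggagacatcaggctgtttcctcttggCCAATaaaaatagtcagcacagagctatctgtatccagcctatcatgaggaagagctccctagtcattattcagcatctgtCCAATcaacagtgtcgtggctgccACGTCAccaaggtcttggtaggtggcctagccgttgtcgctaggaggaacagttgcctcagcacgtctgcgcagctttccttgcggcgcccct
Firre held 1 E-box, present in 7.15% of the 32851 windows of the table, and 1 GC box, present in 35.7%. Airn held 1 TATA box on the reverse strand, present in 13.6%, and 1 GC box. Kcnq1ot1 held 3 CCAAT boxes, a number reached by 3.37% of windows, and 1 partial cAMP response element, present in 7.51%. Firre had 12 CpG dinucleotides and 62.7% G and C, Kcnq1ot1 had 9 and 53.3%, and Airn had 3 and 45.7%, where the median window had 7 and 52.7%. No motif of this search was common to Firre and Airn other than the GC box. Malat1, whose window holds 2 partial cAMP response elements, a number reached by 2.17% of windows, was the fourth member with an entry.

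Airn, at chr17:12741311-12860136 on the plus strand, begins inside Igf2r and runs antisense to it, across its start and beyond. Its annotated isoforms summed to 2.77 FPKM with CIA and 1.40 FPKM in health, a ratio of 1.97. Airn-203, with the shortest first intron of the isoforms that start at the promoter, stood at 1.59 and 0.993 FPKM. It held 57.4% and 70.8% of the sum. Airn-202 stood at 0.597 FPKM with CIA and 0.185 FPKM in health, and Airn-204, which reaches the end of the locus, at 0.117 and 0.0270 FPKM. Airn-205, which starts 74.6 kb downstream, stood at 0.465 and 0.198 FPKM. All 4 detected isoforms were higher in the CIA library, by ratios between 1.60 and 4.33, and Airn-201 and Airn-206 were listed at 0 in both. Only Airn-203 and Airn-202 reached 0.5 FPKM, and Airn-202 did so in the CIA library alone.

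Most Airn RNA is known to be unspliced, and the assembled table held 8 single-exon fragments named after Airn, all without strand and all within its introns. Of these, MSTRG.15809.1 and MSTRG.15810.1 also lie in CT030636.1, a gene on the opposite strand, and the other 6 lie in no other gene. Their levels overlapped between the libraries, from 0.808 to 3.22 FPKM in the CIA and from 0.967 to 2.86 FPKM in the healthy library. Of the 8, 5 were higher in the CIA library and 3 lower, with a median log2 ratio of 0.24, beside 0.26 for all assembled transcripts. The longest, MSTRG.15806.1 of 5308 bases, lies 30.5 kb from the start, upstream of the Igf2r start and in no other annotated gene, and stood at 2.10 and 0.967 FPKM. The ratio of that fragment, 2.17, was near that of the spliced isoforms. MSTRG.15814.1 stood at 2.64 and 1.60 FPKM.

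Of the 3 lower fragments, MSTRG.15807.1 differed little, at 1.77 and 1.85 FPKM, and the other 2 lay close to MSTRG.15814.1. MSTRG.15813.1 and MSTRG.15815.1, of 316 and 457 bases and 63.8 kb and 66.5 kb from the start, stood at 0.808 and 2.04 FPKM and at 1.03 and 2.22 FPKM, with MSTRG.15814.1 between them. Single short fragments of an intron therefore did not move together. Summed, the 8 fragments gave 15.3 FPKM with CIA and 14.4 FPKM in health, a ratio of 1.06. With the spliced isoforms added the sums were 18.0 and 15.8 FPKM, a ratio of 1.14. As FPKM is already per length, such a sum over separate pieces is not the level of Airn RNA. Weighted by length, which gives the long fragment its due share of reads, the 8 fragments held 18.0 and 11.9 fragments per 1000000, a ratio of 1.5. The 6 fragments in no other gene summed to 10.2 and 10.03 FPKM, a ratio of 1.02, or to 16.6 and 10.8 fragments per 1000000, a ratio of 1.54. MSTRG.15806.1 alone gave 11.1 and 5.13 of these per 1000000, so both weighted ratios rest largely on that 1 piece. Whether Airn was near 2-fold higher thus depended on which of its transcripts were summed and how. A pair of further fragments within the Airn span bore other names. MSTRG.15804.1, in an intron of both Airn and Igf2r, stood at 3.52 and 1.81 FPKM, and MSTRG.15812.1, within the lncRNA CT030636, at 1.91 and 0.925 FPKM. As fragments carry no strand, the RNA of Airn, Igf2r and CT030636 cannot be told apart there or in MSTRG.15809.1 and MSTRG.15810.1.

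**Figure D4:**
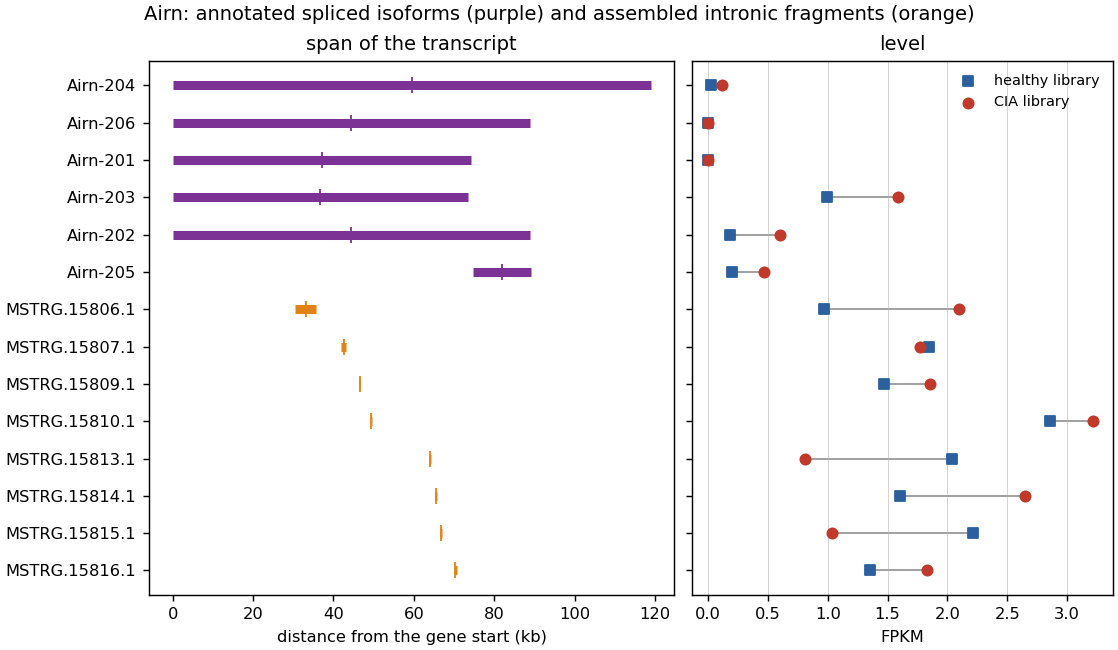
Annotated Airn isoforms (purple) and assembled fragments in its introns (orange). The left panel gives spans in kb from the Airn start, with a tick at the middle, and the right panel FPKM in the healthy (blue squares) and the CIA library (red circles). The 4 isoforms above 0 are all higher in the CIA library, whereas 3 of the 8 fragments are lower.

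Kcnq1ot1, at chr7:143203458-143296549 on the minus strand, is antisense to Kcnq1 and is annotated as 1 unspliced transcript of 93092 bases. It stood at 4.23 FPKM with CIA and 3.63 FPKM in health, a ratio of 1.16 and a log2 ratio of 0.21. No assembled transcript bore its name, and no transcript of another name lay inside it in either table. Over such a length the value averages many reads, but its span overlaps an annotated Kcnq1 exon and Kcnq1 introns on the opposite strand, and reads of that gene could not be told apart. Of the 4 transcripts within 50 kb, none reached 0.5 FPKM in either library. Gm37364, which begins 1148 bases beyond the Kcnq1ot1 start on the other strand, stood at 0.0256 and 0.0118 FPKM, and 4933417O13Rik had a transcript at 0.0596 FPKM and 0.

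The other imprinted antisense RNA of the pair, Airn, had a log2 ratio of 0.93 over annotated isoforms, against 0.21 for Kcnq1ot1. With the FPKM of its 8 fragments added it was 0.19, but such a sum is not the level of Airn RNA. Weighted by length, the ratio was 2.07 for the annotated Airn isoforms and 1.54 for the 6 fragments in no other gene, against 1.16 for Kcnq1ot1. All 8 fragments held 18.0 per 1000000 with CIA and 11.9 in health, although 3 of the 8 were lower with CIA. Of these sums MSTRG.15806.1 alone gave 11.1 and 5.13, so the weighted ratio of the fragments rests largely on it. The 2 genes were thus alike in the plain FPKM sum and in the median log2 ratio of the 8 fragments, 0.24. They differed in the annotated isoforms and in the weighted sums. With 1 library per group no spread can be given. Around Firre, the only other transcript within 50 kb was MSTRG.40234.1, of 213 bases and 2989 bases beyond the 3′ end, at 1.89 FPKM in the CIA library and 0 in the healthy library.

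Other lncRNAs of the same fields, 21 genes in 3 lists, were looked up in the annotated table. Of these, 9 reached 0.5 FPKM in either library, with a median log2 ratio of 0.24, 7 higher and 2 lower. With the pseudocount of 0.1 FPKM, Rian alone was 2-fold apart, at 0.909 FPKM with CIA and 0.360 FPKM in health. Among RNAs of X inactivation, Jpx, an activator of Xist, stood at 6.0 and 4.16 FPKM, and Ftx at 7.39 and 5.75 FPKM. Xist itself, which coats the inactive X of female cells, was at 0.105 and 0.164 FPKM and Tsix at 0.138 and 0.212 FPKM.

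At imprinted loci, Peg13 stood at 11.0 and 8.56 FPKM, Snhg14, the host of the Prader-Willi region snoRNAs, at 2.63 and 2.48 FPKM, and Nespas, antisense at the Gnas locus, at 0.240 and 0.526 FPKM, a ratio of 0.456 before the pseudocount. H19, Nctc1, Meg3 and Mirg were below 0.5 FPKM in both libraries and Igf2os was listed at 0. Of the other nuclear lncRNAs, Tug1 stood at 26.7 and 27.9 FPKM, Lncpint at 10.7 and 10.4 FPKM and Pvt1, next to Myc, at 4.23 and 3.56 FPKM. Miat, Hotairm1 and Rmst were below 0.5 FPKM, and Hotair and Hottip were listed at 0 in both libraries. The values of these lists leave out assembled transcripts of the same names. With these added, the log2 ratio went from -0.88 to -0.42 for Nespas and from 0.04 to 0.36 for Lncpint. It went from 0.08 to 0.39 for Snhg14, from 0.36 to 0.42 for Ftx and from 0.24 to 0.13 for Pvt1.

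By likeness of level in the 2 libraries, the nearest genes were Pvt1 and Gm37399 to Kcnq1ot1, Uckl1os and Dubr to Firre, Gm15700 and Eldr to Airn, and Gm42737 and AI480526 to Neat1. The distances on the log2 scale, over these 2 libraries only, were 0.03 to 0.10. Malat1 had no such neighbour, with Gm28967 at 5.87 and Snhg3 at 6.10. Many genes share a pair of values, and nothing follows from such likeness.

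In the authors' deposited table, 9 of the 35 transcripts of the 5 genes had a p below 1. Only Firre-206 had a p below 0.05 there, and none had a q below 0.05 in the authors' deposited table. The authors' deposited table marked 2 of the 35 as significant, Firre-206 and MSTRG.15806.1 of Airn, the latter with a p of 0.139. The p for Malat1-201 in the authors' deposited table was 0.821, that for Kcnq1ot1 0.894 and that for Neat1-201 0.637. Each such p rests on a single pair of libraries.

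As a check of the labelled tissue, Bloodlinc, a lncRNA of the erythroid lineage, stood at 1.55 FPKM with CIA and 1.11 FPKM in health. Mir142hg, the host of the haematopoietic miR-142, was listed at 0 and 14.3 FPKM in its annotated form and at 42.1 and 32.6 FPKM in an assembled one. Mir155hg stood at 0.245 and 0.240 FPKM, with assembled transcripts at 3.06 and 3.66 FPKM. Of 6 lncRNAs of brain, muscle and mesenchyme, 5 were in the table and none reached 0.5 FPKM. Protein-coding markers of spleen cells were not analysed here, so the share of each cell type in the libraries is unknown.

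**Figure D5:**
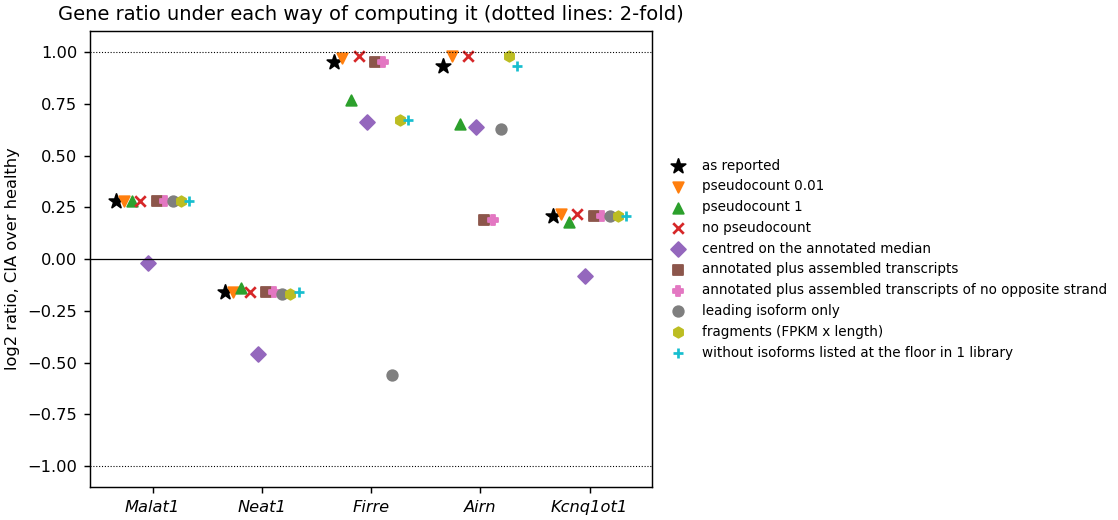
Log2 ratio of CIA over healthy for each gene (x axis) under each way of computing it (symbols), with dotted lines at 2-fold. No symbol passes 2-fold, Firre turns from 0.95 to -0.56 when only the isoform highest over both libraries, Firre-208, is taken, and Airn drops to 0.19 with its assembled fragments.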

How the data were processed

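RNA-seq of spleen cells was measured in 1 CIA and 1 healthy library. Per the labels' protocols, TRIzol was used for total RNA and ribosomal RNA was removed. StringTie is named per the submitters' processing notes. Aligner, build, strand setting and test: not given in the sources used here. FPKM values were deposited by the authors for each transcript, with 0.0001 in place of 0, which was read as 0. The ratio (fold) and log2 columns deposited by the authors equalled CIA over healthy FPKM within a relative tolerance of 0.0001. In 2 damaged cells, of no gene named here, the CIA value was restored from the deposited ratio. The p-values and q-values deposited by the authors are quoted only. The other columns deposited by the authors give transcript length and exon number. Each of the 15172 annotated transcripts matched GENCODE M21 in its coordinates, which are therefore those of GRCm38.

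FPKM was summed per gene over annotated transcripts, and log2((CIA + 0.1)/(healthy + 0.1)) was computed. This pseudocount understates ratios of low transcripts. A level of 0.5 FPKM in one library or both was required for the background, and 2-fold was used in place of a test. Depth is unknown, since FPKM keeps no counts. Repeat copies were sought with blastn 2.17.0. Sequences come from GENCODE M21 transcripts and RefSeq promoter windows, which held 4 of the 5 genes. Python 3.11.15, numpy 2.4.6, pandas 2.3.3 and matplotlib 3.10.9 were used. Simulated data without noise were used to check the code of the 2-fold rule, which gives no error rate for the rule. Named were the 5 genes with their transcripts, listed genes of at least 0.5 FPKM, the 2 highest neighbours within 50 kb and the 2 nearest genes by level. The choice of these genes as a set, of the lists and of the isoform groups was made with earlier results of these data known, and genes below the filter, markers and Gm37376 were named after their values were seen.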

Additional observations from a re-analysis of the deposited data

How the results depend on the processing

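No paired analysis was possible because a group held 1 library only. None of the 5 genes was 2-fold apart under the settings counted, namely other pseudocounts, filters, centring, sums and a 4-fold rule. Outside these settings, Airn counted as fragments with no pseudocount passed 2-fold, at a ratio of 2.07. Neat1, Firre and Airn kept their direction except Firre with only the isoform highest over both libraries, Firre-208 (-0.56). Firre-202, the leading isoform with CIA, gave 1.08, which is past 2-fold and also outside the settings counted. Centring on the annotated median turned Malat1 to -0.02, Kcnq1ot1 to -0.08 and the median of the 5 genes to -0.02, as they lay just below that median. Counted in fragments, the share was 43.6% and 56.2% for Airn-203 and 26.0% and 63.9% for Firre-208, in the CIA and the healthy library. With assembled transcripts added it was 8.82% and 6.30% for Airn-203. Annotated genes 2-fold higher and lower numbered 386 and 116, 788 and 324 with no filter, 219 and 69 with 1 FPKM as the filter, 85 and 34 under the 4-fold rule, 59 and 26 with a pseudocount of 1 FPKM, and 202 and 194 after centring. The sums without opposite-strand transcripts and without isoforms listed at 0 in 1 library were added after seeing the data. Without a count of reads, no interval can be given for any isoform. The Firre and Airn ratios rest on annotated isoforms of at most 1.59 FPKM, many of them below 1 FPKM.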
